A study of Mus musculus with 4 samples.

Results

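Genes that store, import, export or carry zinc, iron and copper were followed in the livers of Nrg4 knockout (KO) and wild type (WT) mice. They are the metallothioneins Mt1 and Mt2, the zinc importers Slc39a14 and Slc39a4, the manganese exporter Slc30a10, the iron exporter Slc40a1, the transferrin receptors Tfrc and Tfr2, transferrin (Trf) and ceruloplasmin (Cp). Members were listed by gene symbol and read from array probe sets that the platform annotation pairs with exactly 1 symbol, keeping for each gene the probe set with the highest mean. Of the 10 genes, 8 had such a probe set, out of 22180 genes measured in this way, and all 8 were among the 12458 genes bright enough to be tested. Slc30a10 and Trf lie on probe sets paired with 2 symbols each and are not counted as measured here.

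Every animal was a male mouse given the NASH diet (Research Diets D09100301) for 20 weeks, beginning at 3 months of age, and livers were collected in the fed state. NASH, non-alcoholic steatohepatitis, is a fatty and inflamed liver with cell injury and scarring. The groups differed in genotype, wild type or Nrg4 knockout, with 2 RNA pools per genotype and 1 Affymetrix Mouse Gene ST 2.1 array per pool. Nrg4 encodes neuregulin 4, a signalling protein related to epidermal growth factor. How many animals made up a pool, and how the allele was made, is not stated in the sources used here.

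A liver that takes up zinc, iron or copper must keep free metal low. Metallothioneins are small cysteine-rich proteins that bind zinc and copper, and their genes are switched on by zinc through the transcription factor MTF1 and also by glucocorticoids and inflammatory cytokines. Hepatocytes take up iron bound to transferrin and free iron, store it in ferritin, and secrete hepcidin, a hormone that blocks ferroportin and so iron release from macrophages and gut. TFR2 on hepatocytes senses transferrin-bound iron and feeds into hepcidin production.

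All values are log2 expression levels whose zero point is unknown, so a level can be set against the same gene in another pool but not against another gene. The 4 arrays had medians between 0.52 and 0.64. Nrg4 itself, the check of the labels, stood at 2.54 and 2.30 in WT pools 1 and 2 and at 0.93 in each KO pool. It differed by -1.49 ± 0.20 (SE; adjusted p = 0.182 by limma, with no filter on dim genes). Of the hepatocyte markers fixed for this check, 10 of 10 were measured, and the lowest group mean among them, 7.18, lay far above the array medians. None of the 10 was called between the genotypes by limma, or 1 with a variance that follows intensity.

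The genotypes were close for most of the metal genes, and 2 of the 8 stood apart on an unadjusted test. Slc39a4, a zinc importer, was higher in both KO pools than in both WT pools, and Tfr2, the hepatocyte transferrin receptor, was lower. Neither passed a Benjamini-Hochberg adjusted p of 0.05 over the 12458 tested genes, so by limma 0 of the 8 members were called, where 6 genes in all were called, 0.0482% of those tested. With a variance that follows intensity, limma also called 0 of 8. At an unadjusted p under 0.05 stood 1 member on the higher side (Slc39a4) and 1 on the lower side (Tfr2), against 6.37% of tested genes on the higher side, 3.92% on the lower and 10.3% in both. Without WT pool 1, WT pool 2 or KO pool 1 no member had an unadjusted p under 0.05, and with quantile normalization 1 did. The median difference over the 8 members, KO minus WT, was -0.09 on the log2 scale, beside 0.01 over all tested genes, and 5 of the 8 were below 0, as were 48.4% of tested genes. The pools did not overlap for 5 members, 1 higher and 4 lower in KO, against 41.7% of tested genes, 22.2% higher and 19.5% lower. With 2 pools against 2, an exact two-sided permutation test cannot give a p below 0.333 for any single gene.

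**Figure D1:**
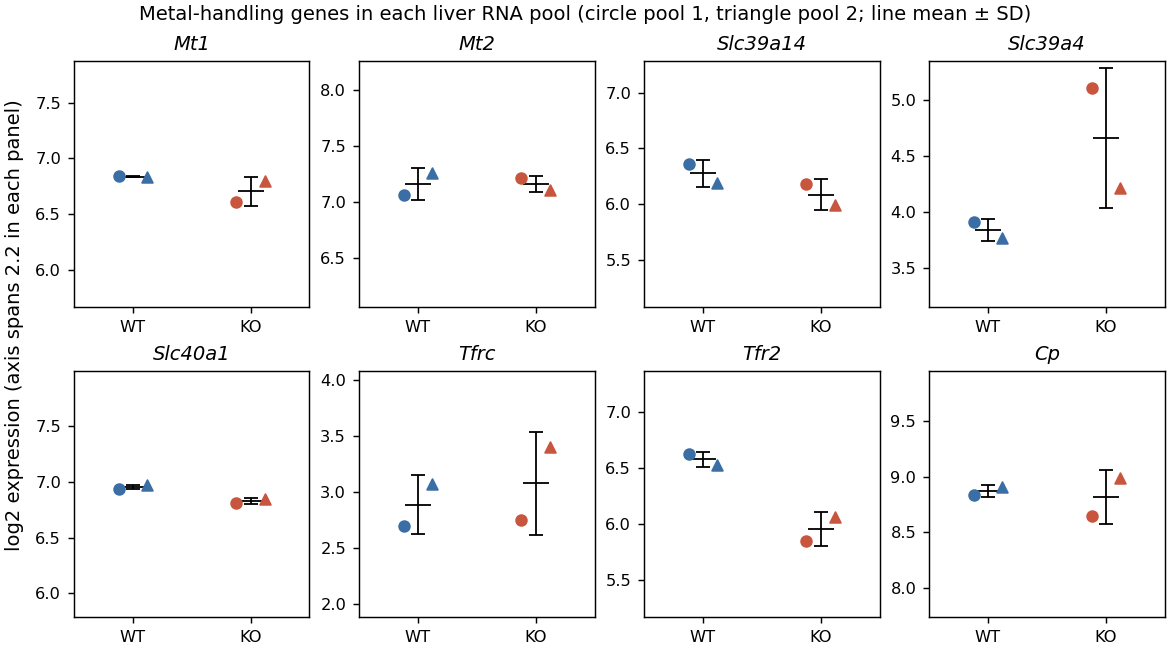
Log2 expression of the 8 measured genes in each liver RNA pool, blue for WT and red for KO, with pool 1 as a circle and pool 2 as a triangle; the bar is the mean and the whiskers the SD of 2 pools. Every panel spans the same range of 2.2 log2 units, so that Slc39a4 and Tfr2 can be seen to separate while the pools of Mt2, Tfrc and Cp overlap.

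The metallothionein levels lay close together in the 2 genotypes. Mt1 stood at 6.84 and 6.83 in the WT pools and at 6.61 and 6.80 in the KO pools. Both KO values were lower, but KO pool 2 lay 0.03 below the nearest WT pool. The difference was -0.13 ± 0.19 (SE; limma, adjusted p = 0.857). Mt2, the second zinc-binding isoform expressed in liver, stood at 7.06 and 7.26 in the WT pools and at 7.21 and 7.11 in the KO pools. Here both KO values fell between the WT values, and the difference was 0.00 ± 0.20 (SE; adjusted p = 0.999). The 95% interval of the KO to WT ratio ran from 0.65 to 1.27 for Mt1 and from 0.71 to 1.41 for Mt2. These arrays therefore leave room for a change of about that size in either direction. The sequences of the 2 genes are alike, so each probe set may also measure RNA of the other gene.

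The 2 genes are neighbours on mouse chromosome 8 (RefSeq, GRCm38.p6), Mt2 at chr8:94172618-94173567 and Mt1 at chr8:94178883-94180327, both read on the plus strand. Metal response elements, the DNA sites of MTF1, share the core letters TGCACNC or TGCGCNC. The 250 bases before the RefSeq start site of each gene are shown because zinc is known to act on these genes through such cores. The windows are chr8:94178839-94179088 for Mt1 and chr8:94172368-94172617 for Mt2, on the plus strand, with every core match on either strand in capitals.
Mt1: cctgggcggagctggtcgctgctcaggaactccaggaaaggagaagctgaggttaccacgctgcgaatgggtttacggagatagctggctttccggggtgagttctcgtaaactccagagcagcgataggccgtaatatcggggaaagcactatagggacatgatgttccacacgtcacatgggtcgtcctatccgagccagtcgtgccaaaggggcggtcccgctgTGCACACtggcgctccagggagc
Mt2: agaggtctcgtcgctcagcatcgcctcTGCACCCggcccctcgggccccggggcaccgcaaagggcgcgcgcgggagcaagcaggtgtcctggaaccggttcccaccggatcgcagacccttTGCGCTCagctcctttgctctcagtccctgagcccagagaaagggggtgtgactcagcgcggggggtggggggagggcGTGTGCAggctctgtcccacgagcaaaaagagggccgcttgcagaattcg
The Mt1 window held 1 core match, which begins 23 bases before the start site, and the Mt2 window held 3, which begin 223, 128 and 50 bases before it. The last of these reads on the minus strand. A core match occurred in 21.4% of the 32851 promoter windows of the same length in the RefSeq table, and 3 or more in 1.26%. The RefSeq span of Mt1 begins inside its window, so that gene has a further annotated start upstream of the one used. Most of the Mt1 window thus lies within the annotated gene, whereas the Mt2 window ends just before its span. Bases after the start sites used were not searched, so any cores there are not counted. The counts of the 2 windows therefore do not compare like stretches and need not cover all cores of either gene. The window of Slc30a10 also held 3 core matches, 2 of which overlap each other. In Tfrc 1 of 2 windows held a pair of overlapping matches, while the windows of Tfr2 and Cp held none. Slc39a14, Slc39a4, Slc40a1 and Trf had no entry. A match describes letters in the window and is no evidence of binding.

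The factor that reads those cores, Mtf1, was named for its role and not by the rule for named genes. It stood at 2.97 and 3.16 in the WT pools and at 2.98 and 3.09 in the KO pools, a difference of -0.03 ± 0.20 (SE; limma, adjusted p = 0.969), which turned positive without WT pool 2 (0.06) and without KO pool 1 (0.03). Mt3, a metallothionein best known from brain, stood at 0.60 and 0.06 in the WT pools and at 1.20 and 0.75 in the KO pools. The KO values were higher, at levels near the dim end of the scale, where differences are compressed (0.65 ± 0.28 SE, adjusted p = 0.517). Its WT mean, 0.33, lay below the filter level of 0.54 and its KO mean, 0.97, above it. Mt3 thus entered the test through its KO level. Mt4, the form of stratified epithelia, was too dim to be tested.

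A list of 8 genes that glucocorticoids induce was read beside the metallothioneins, and its median difference was -0.37. All 8 were below 0 in KO, as were 48.4% of tested genes. The KO pools lay below the WT pools without overlap for 6 of them (19.5% of tested genes), and 3, Zbtb16, Fkbp5 and Pck1, had an unadjusted p under 0.05 on the lower side (3.92% of tested genes). Per1 and Sgk1 overlapped between the genotypes, at -0.03 ± 0.22 and -0.02 ± 0.20 (SE). The mean log2 level over all 8 genes was 5.44 to 5.45 in the WT pools and 4.79 to 4.91 in the KO pools. Zbtb16 had the smallest adjusted p (0.054 by limma), so none of the 8 was called, but it passed when dim genes were kept in the fit (0.041), and it and Pck1 passed with a variance that follows intensity (0.0017 and 0.012). These genes were named after their values were seen, and their part in the metallothionein values was not tested.

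The genes whose values followed the metallothioneins most closely across the 4 pools were picked by the smallest root mean square distance between log2 values, each gene taken relative to its WT mean. For Mt1 they were Hspa8, Tm9sf4 and Slc22a12, at distances of 0.009 to 0.011 on the log2 scale. For Mt2 they were Prkd3, Nabp2 and Ankrd17, at 0.009 to 0.014. The distance between Mt1 and Mt2 was 0.16. Of the 12458 tested genes, 2654 lay closer to Mt1 than Mt2 did, and 2288 lay closer to Mt2 than Mt1 did. Slc22a12 stood at 0.46 to 0.69 over the 4 pools, near the dim end of the scale. With 4 pools and differences this small, the likeness is a description only.

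The 2 zinc importers had differences of opposite sign, neither of them called. Slc39a4 encodes ZIP4, the importer best known for taking up dietary zinc in the small intestine. Its level was 3.91 and 3.77 in the WT pools and reached 5.10 and 4.22 in the KO pools. Both KO pools lay above both WT pools, and KO pool 1 lay well above KO pool 2. The difference was 0.82 ± 0.33 (SE; limma, unadjusted p = 0.047, adjusted p = 0.481), a KO to WT ratio of 1.77 with a 95% interval from 1.01 to 3.10. It came to 0.38 without KO pool 1 and 1.27 without KO pool 2.

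Slc39a14 encodes ZIP14, a hepatocyte importer of zinc, manganese and iron not bound to transferrin, which interleukin 6 induces. It stood at 6.36 and 6.19 in the WT pools and at 6.18 and 5.99 in the KO pools. The groups did not overlap, by a margin of 0.007 between KO pool 1 and WT pool 2. The difference was -0.19 ± 0.20 (SE; adjusted p = 0.797), with the KO to WT ratio between 0.62 and 1.24. Slc39a14 lies on chromosome 14 and Slc39a4 on chromosome 15.

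**Figure D2:**
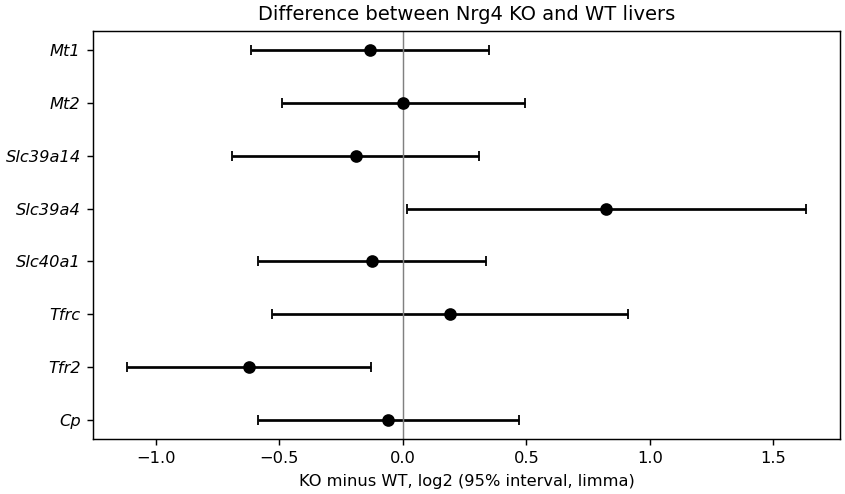
Difference between KO and WT livers for each of the 8 measured genes, given as KO minus WT in log2 units, with the 95% interval of the limma fit. The intervals of Slc39a4 and Tfr2 do not include 0, although neither passed the adjusted threshold, and the intervals of the other 6 genes do.

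The remaining zinc transporters showed no called difference. Among the other zinc importers of the SLC39 family, 8 of 11 were tested, 3 above 0 and 5 below, with a median of -0.07 and no gene at an unadjusted p under 0.05. The one with the smallest p was Slc39a11, at 1.85 and 2.21 in WT and 2.52 and 2.43 in KO (0.45 ± 0.22 SE; limma, adjusted p = 0.567). Among the other zinc exporters of the SLC30 family, 6 of 9 were tested, 3 above and 3 below 0, with a median of 0.07. Slc30a5, which loads zinc into the secretory pathway, had the smallest p, at 5.38 and 5.55 in WT and 5.10 and 5.11 in KO (-0.36 ± 0.19 SE; adjusted p = 0.599). Slc30a1, the zinc exporter of the cell membrane, had no probe set of its own and was not analysed here.

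Among the iron receptors Tfr2 differed most. Its level was 6.62 and 6.53 in the WT pools and only 5.85 and 6.06 in the KO pools. Both KO pools lay below both WT pools, with a gap of 0.47 between the nearest of them. The difference was -0.62 ± 0.20 (SE; limma, unadjusted p = 0.022, adjusted p = 0.397), a KO to WT ratio of 0.65 with a 95% interval from 0.46 to 0.91. Leaving out any 1 pool kept it between -0.73 and -0.51, and the smallest adjusted p over all alternatives was 0.081, with a variance that follows intensity. In whole liver, fewer cells of a type and less RNA per cell cannot be told apart. The 10 hepatocyte markers had a median of -0.02 in the same pools, with mean log2 levels of 9.29 to 9.30 in WT and 9.18 to 9.19 in KO. Among the 10, 4 were lower in KO without overlap (19.5% of tested genes) and 1 was higher (22.2%). The part of the hepatocyte markers in the Tfr2 difference was not tested.

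Tfrc encodes the transferrin receptor that most cells use to take up iron, and its mRNA is stabilised when iron is scarce. It stood at 2.70 and 3.08 in the WT pools and at 2.75 and 3.40 in the KO pools. The groups overlapped, with pool 2 the higher in each genotype. The difference was 0.19 ± 0.29 (SE; adjusted p = 0.863), the KO to WT ratio lay between 0.69 and 1.88, and without KO pool 2 the difference was -0.13. Of the erythroid markers, whose cells are rich in Tfrc, 3 of 8 were measured and 2 tested, and they had group means no higher than 0.84 on the log2 scale, near the array medians.

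Slc40a1, which encodes ferroportin, the iron exporter of macrophages and hepatocytes, varied little among pools of the same genotype. It stood at 6.94 and 6.97 in the WT pools and at 6.81 and 6.84 in the KO pools. All KO values were lower, by a gap of 0.09 on the log2 scale, and the difference was -0.13 ± 0.19 (SE; limma, adjusted p = 0.859). The SE exceeds the spread of these pools because limma moderates each gene's variance towards that of all genes. The KO to WT ratio lay between 0.67 and 1.26.

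Macrophages are a main site of ferroportin, and their markers did not move as one in these pools. Of 8 Kupffer cell markers, the resident macrophages of the liver, 4 were above 0 and 4 below, with a median of 0.06. Their mean log2 level was 4.00 to 4.25 in WT and 3.73 to 3.76 in KO. Leaving out WT pool 1 gave a median of -0.03, and leaving out WT pool 2 one of 0.16. Without overlap, 3 of the 8 were lower in KO (19.5% of tested genes) and 2 were higher (22.2%). By limma 2 of them, Marco and Cd163, had an unadjusted p under 0.05 on the lower side (3.92% of tested genes). The scavenger receptor Marco, named after its value was seen, stood at 2.63 and 3.53 in WT and 0.76 and 0.66 in KO. Both KO values lay near the dim end of the scale, where differences are compressed. The Marco difference was -2.37 ± 0.33 (SE; limma, adjusted p = 0.181), and it passed with a variance that follows intensity (adjusted p = 0.018). Of 8 markers of monocyte-derived macrophages 7 were measured, and all 7 were above 0, where 48.4% of tested genes were below. All 7 were higher in KO with pools that did not overlap (22.2% of tested genes), with a median of 0.99. By limma 6 of them had an unadjusted p under 0.05 (6.37% of tested genes on the higher side). The mean log2 level of the 7 was 2.34 to 2.52 in WT and 3.38 to 3.50 in KO. The part of these cells in the Slc40a1 value was not tested.

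Cp encodes ceruloplasmin, a copper-carrying ferroxidase made by hepatocytes that oxidises iron leaving cells so that transferrin can bind it. It stood at 8.84 and 8.91 in the WT pools and at 8.64 and 8.99 in the KO pools. The WT values lay between the KO values. The difference was -0.06 ± 0.21 (SE; limma, adjusted p = 0.950), with the KO to WT ratio between 0.67 and 1.39, and it was 0.11 without KO pool 1 and 0.004 with quantile normalization. Ceruloplasmin and Slc39a14 are also acute phase genes. Of 9 measured genes of an acute phase list, 2 were above 0 and 7 below, with a median of -0.05, where 48.4% of tested genes were below. Without overlap, 4 were lower in KO (19.5% of tested genes) and 1 was higher (22.2%). Saa3, named after its value was seen, was the one at an unadjusted p under 0.05 by limma (-0.60 ± 0.21 SE; adjusted p = 0.436). On the lower side 3.92% of tested genes stood at such a p. The mean log2 level of the 9 was 6.83 to 7.03 in the WT pools, against 6.81 in each KO pool. The part of that response in the Cp and Slc39a14 values was not tested.

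**Figure D3:**
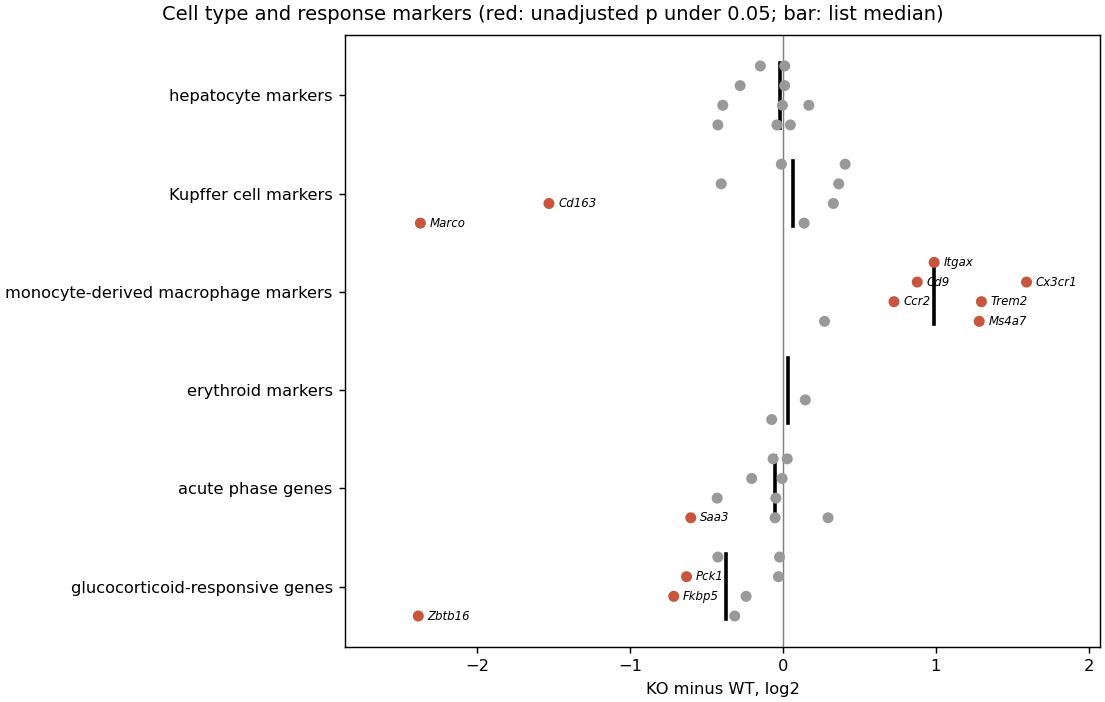
KO minus WT on the log2 scale for each tested gene of 4 cell type marker lists and 2 response lists, with list medians as black bars and genes at an unadjusted p under 0.05 in red. The monocyte-derived macrophage markers lie to the right of 0 (median 0.99) and the glucocorticoid-responsive genes to the left (median -0.37), whereas the hepatocyte and Kupffer cell medians lie near 0. The 2 red Kupffer cell markers, Marco and Cd163, lie far to the left.

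The wider metal-handling genes gave no call either. Of 65 genes in 8 pathway lists, 62 were measured and 54 tested, 26 above 0 and 28 below, with a median of -0.01. By limma 0 of the 54 passed the adjusted threshold and 3 had an unadjusted p under 0.05, which is 5.56% against 10.3% of all tested genes. With a variance that follows intensity the 3 became 6 of 54, beside 1518 of all 12458 tested genes, and 0 of the 54 passed the adjusted threshold.

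**Figure D4:**
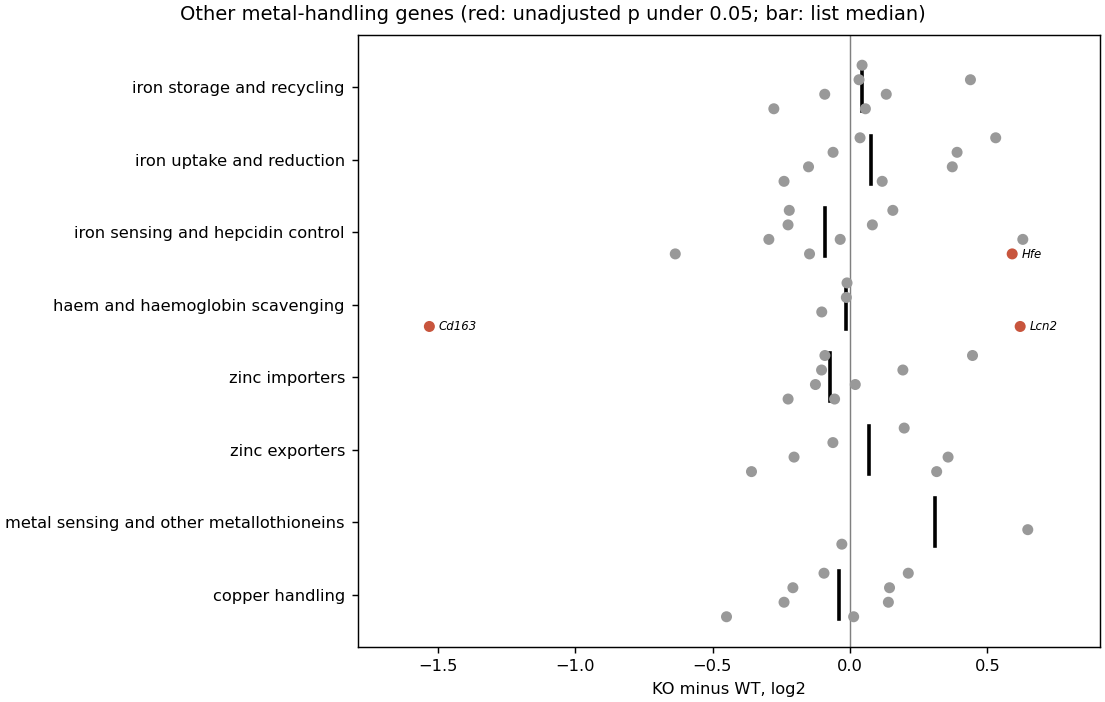
KO minus WT on the log2 scale for the 54 tested genes of 8 lists on iron, zinc and copper handling, with list medians as black bars and genes at an unadjusted p under 0.05 in red. Most genes lie within 0.5 of 0, and the 3 red genes are Cd163, Lcn2 and Hfe.

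Among the genes of iron sensing and hepcidin control, 10 of 10 were tested, 4 above and 6 below 0. Hfe, the haemochromatosis protein that binds transferrin receptors and takes part in hepcidin control, stood at 4.73 and 4.38 in WT and 5.31 and 4.98 in KO. Both KO pools lay above both WT pools (0.59 ± 0.23 SE; limma, unadjusted p = 0.048, adjusted p = 0.483). Hepcidin (Hamp), named for its role, stood at 10.23 and 10.01 in the WT pools and at 9.60 and 10.06 in the KO pools. The groups overlapped, and the difference was -0.30 ± 0.24 (SE; adjusted p = 0.724), or -0.07 without KO pool 1 and -0.52 without KO pool 2. Hamp shares sequence with Hamp2, so the probe set of each may measure both.

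Of 8 iron storage and recycling genes 7 were tested, 5 above and 2 below 0, with a median of 0.04. The ferritin heavy chain Fth1, named for its role, stood at 9.87 and 9.92 in WT and at 10.03 in both KO pools (0.13 ± 0.19 SE; limma, adjusted p = 0.851). Hmox1, the haem oxygenase that frees iron from haem, had the smallest p of the list, at 4.57 and 4.09 in WT and 4.84 and 4.70 in KO (0.44 ± 0.24 SE; adjusted p = 0.603). Its difference lay between 0.20 and 0.68 without any 1 pool. Of 10 genes of iron uptake and reduction 8 were tested, 5 above and 3 below 0. Steap4, a metalloreductase, had the smallest p, at 7.16 and 7.27 in WT and 7.72 and 7.48 in KO (0.39 ± 0.20 SE; adjusted p = 0.587).

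Haem and haemoglobin scavenging held the largest single difference of these lists. Cd163, the macrophage receptor for haptoglobin-bound haemoglobin, stood at 2.93 and 2.47 in the WT pools and at 1.24 and 1.11 in the KO pools. The KO levels lay towards the dim end of the scale, where differences are compressed. Both KO pools lay below both WT pools, with a gap of 1.24 on the log2 scale (-1.53 ± 0.23 SE; limma, adjusted p = 0.186), and the adjusted p was 0.064 with a variance that follows intensity. Lcn2, lipocalin 2, which binds iron-loaded bacterial siderophores, stood at 6.19 and 6.45 in WT and 6.98 and 6.90 in KO (0.62 ± 0.20 SE; unadjusted p = 0.024, adjusted p = 0.405). The other 3 of the 5 genes were below 0. Cd163 is also 1 of the Kupffer cell markers above, where the other markers divide 4 above and 3 below 0.

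Of 9 copper genes 8 were tested, 4 above and 4 below 0, with a median of -0.04. Slc31a1, the copper importer CTR1, had the smallest p, at 6.10 and 5.93 in WT and 5.35 and 5.79 in KO. The KO values were lower (-0.45 ± 0.23 SE; limma, adjusted p = 0.587), and the difference lay between -0.67 and -0.23 without any 1 pool.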

How the data were processed

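The deposited values are log2 expression per probe set for 41345 probe sets on 4 arrays. Per the submitters' processing notes, the authors used oligo, RMA and limma; the sources used here state no versions, build or annotation. RMA corrects background, equalises arrays and summarises probes, and values ran from -1.12 to 11.9. Per the labels' protocols, each array held biotin-labelled cDNA from 400 ng of pooled total RNA. Of the probe sets, 23521 had 1 symbol, 1814 several and 16010 none, by the platform annotation. Genes whose mean was at or above the median of probe set means (0.54) were tested.

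The genotypes were compared in R 4.3.3 with limma 3.58.1 (lmFit and eBayes, genotype as the 1 term, 2 residual degrees of freedom and 3.67 prior ones), with Benjamini-Hochberg adjustment over all tested genes; calls were made at an adjusted p under 0.05. The fit was tested on simulated data. P-values rest on the spread between pools, moderated by limma towards that of all genes, and not on the spread between animals. The number of arrays limits the precision, and no batch information was used. Members, lists and tests were chosen with earlier results of these data known. By rule, the genes named with values are the members, Nrg4 and the 3 nearest genes to Mt1 and Mt2. In each pathway list they are those at an unadjusted p under 0.05 by limma, or else the smallest p. Outside the rule, Mtf1, Hamp and Fth1 were named for their role. Marco, Saa3 and the glucocorticoid-responsive genes were named after their values were seen. Promoter sequences are from RefSeq, GRCm38.p6, where 6 of the 10 genes matched. Alternatives were the filter, the normalization, the variance model, the probe set rule, leaving out each pool and a block on pool number.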

Additional observations from a re-analysis of the deposited data

How the results depend on the processing

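No member passed the adjusted threshold under any of the 12 alternatives, and the count of members called stayed at 0. The count of all genes called by limma was 6, or 136 with a variance that follows intensity, 2 with a replicate block and 0 without any 1 pool. The median difference of the members was -0.09 and became -0.022 with quantile normalization; without 1 pool it ran from -0.14 to -0.05. Of 96 recomputed member differences, 90 kept their direction. Mt2 turned to -0.046 with arrays centred on their medians and ran from -0.10 to 0.10 without 1 pool, Cp was 0.0044 with quantile normalization and ran from -0.23 to 0.11 without 1 pool, and Tfrc ran from -0.13 to 0.52. Of 204 recomputed differences of other named genes, 196 kept direction and side of the threshold. Marco, Pck1 and Zbtb16 passed with a variance that follows intensity, Zbtb16 also with no filter, a stricter filter and centred arrays, and Mtf1 ran from -0.122 to 0.0626 without 1 pool. The hepatocyte median turned to 0.051 with quantile normalization, and the Kupffer cell median ran from -0.032 to 0.16 without 1 pool. Nrg4 ran from -1.60 to -1.37 without 1 pool. The cause of these changes was not tested. Where 1 pool is left out, the lone pool is assumed to vary like the other genotype.

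The pool numbers are shared by the labels of both genotypes. Deviations from the group means of same-numbered pools correlated at -0.04 over tested genes. With 2 pools per genotype this is 1 correlation, and it cannot show whether same-numbered pools shared more than a number. With a replicate block the member median stayed at -0.09 and 0 members were called. At this number of arrays, differences such as that of Tfr2 (-0.62) and even of Nrg4 (-1.49) did not pass the adjusted threshold.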

Other observations

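The probe sets that the annotation pairs with 2 symbols, and that were left out of the gene tests, gave these values. One set paired with both Slc30a10, the manganese exporter, and the long non-coding RNA Gm2061 stood at 2.16 and 1.53 in the WT pools and at 0.71 and 0.76 in the KO pools. Both KO values lay near the dim end of the scale. The difference was -1.11 ± 0.28 (SE; limma, unadjusted p = 0.012, adjusted p = 0.649 over all probe sets). The other set paired with the same symbols stood at 0.37 and 0.56 in WT and 0.64 and 0.09 in KO, a difference of -0.10 ± 0.27. Which of the overlapping genes these sets measure cannot be told from the annotation.

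The set paired with both Trf, transferrin, and Srprb, a subunit of the signal recognition particle receptor, stood at 10.34 and 10.44 in WT and 10.34 and 10.38 in KO. The WT and KO values overlapped, with a difference of -0.03 ± 0.19 (SE; limma, adjusted p = 0.985 over all probe sets).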
